A study of Mus musculus with 15 samples.

Results

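The receptor for ACTH and the cAMP route behind it are described here through 9 genes, Mc2r, Mrap, Pde8a, Pde8b, Prkar1a, Prkar2b, Prkaca, Creb1 and Crem. They are 9 of the 21439 genes measured, and each was read by 1 probe set, 9 of 32736. The rule that selects them uses gene symbols, and the set was proposed with earlier results of these data known. Whole adrenal glands of male wild type C57BL/6J mice were measured on 15 arrays in 4 groups. Control glands (n = 4) came from mice before dexamethasone, a synthetic glucocorticoid. Withdrawal glands (n = 3) were collected when 14 days of the drug, given with the drinking water, ended. Day 3 glands (n = 4) and day 7 glands (n = 4) followed 3 and 7 days later. Every array is labelled 6 weeks old, although treatment and recovery add days to the later groups, so that age and treatment cannot be told apart in a comparison with control. Titles number the arrays as biological replicates. They do not say whether a replicate is 1 animal or pooled glands, so p-values measure the spread between these samples.

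ACTH from the pituitary acts on the adrenal cortex through the melanocortin 2 receptor, the product of Mc2r. The receptor reaches the cell surface and binds ACTH only together with its accessory protein, encoded by Mrap. Receptor activation raises cAMP, which releases the catalytic subunits of protein kinase A from their regulatory subunits, while phosphodiesterases break cAMP down. The kinase phosphorylates transcription factors of the CREB family and drives corticosterone synthesis in the zona fasciculata. Dexamethasone lowers pituitary ACTH, and the series follows the gland from the end of treatment.

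Values are log2 expression, and a difference of 1 is a 2-fold change. Array medians over all probe sets lay between 1.55 and 1.64, and a group mean of 2 or less is called the floor of the arrays. Within-group correlations ranged from 0.987 to 0.991 and 0 pairs of arrays were identical. The labelled tissue carried its defining markers in all groups. The steroid 11-beta-hydroxylase Cyp11b1 lay between 9.07 and 9.84, and tyrosine hydroxylase Th, of the medulla, lay between 9.59 and 9.86 as group means. In whole glands fewer cells of a type and less RNA per cell cannot be told apart.

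At withdrawal 3 of the 9 genes were lower than in control and 0 were higher (limma, adjusted over all 21439 genes at a threshold of 0.05): the accessory protein gene Mrap, the kinase subunit gene Prkar2b and the phosphodiesterase gene Pde8b. Of all genes 4.3% were called, 1.81% lower and 2.49% higher (534 higher and 387 lower, or 341 higher and 853 lower with array median centring). Mrap was 3.45-fold, Prkar2b 2.30-fold and Pde8b 2.12-fold lower. The calls of Mrap and Prkar2b passed in all 7 fits without 1 array, and that of Pde8b in 1 of 7. The receptor gene Mc2r stayed within 0.35 log2 units below and 0.09 above control by its 95% confidence interval in the main fit. At day 3 the mean of Prkar2b differed from control by 0.05 log2 units (95% interval from -0.28 to 0.38). Mrap had a mean of 73.8% of control at day 3 and 56.9% at day 7, of which the second passed. That call passed in 2 of 8 fits without 1 array. Relative to Prkar2b in the same array, a comparison chosen after the values were seen, Mrap differed from control by -0.49 at day 3 and -0.84 at day 7. Neither difference passed (0.103% and 0.0233% of genes called).

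**Figure D1:**
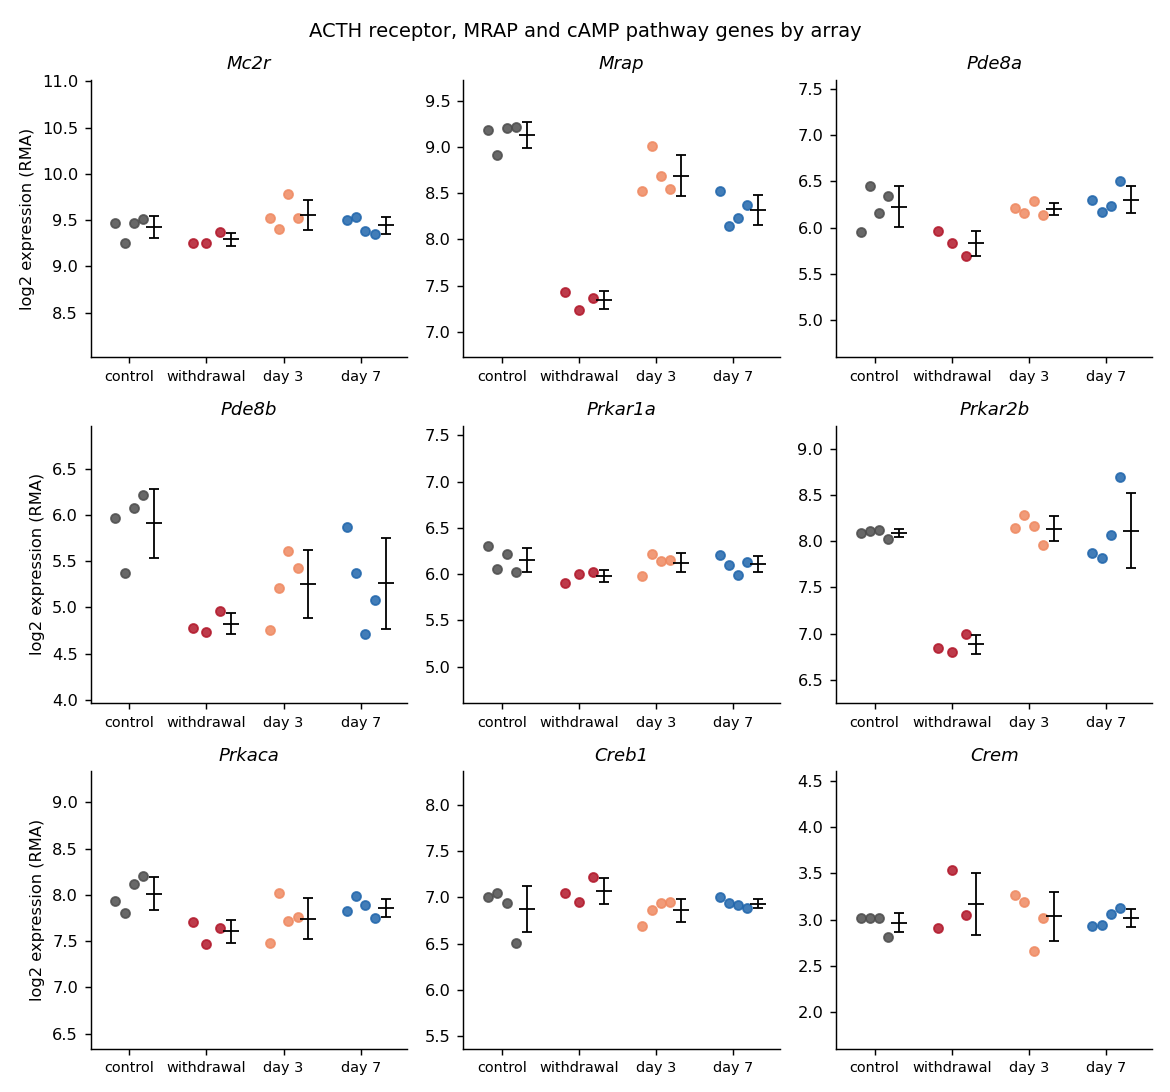
Log2 expression of the 9 genes (y axis, log2 RMA value, each panel spanning 3 log2 units around its own middle) in control, withdrawal, day 3 and day 7 glands (x axis). Each point is 1 array, and the bar beside it is the group mean with its SD; Mrap and Prkar2b withdrawal arrays lie below all arrays of the other groups.

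Mc2r encodes the ACTH receptor itself. Its control arrays read 9.47, 9.25, 9.47 and 9.51, and its withdrawal arrays 9.25, 9.25 and 9.37. The day 3 arrays read 9.52, 9.40, 9.78 and 9.52 and the day 7 arrays 9.50, 9.54, 9.38 and 9.35. The highest value is a day 3 array, the 3 withdrawal arrays are among the lowest, and control replicate 2 is as low as these. The difference between withdrawal and control was -0.13 ± 0.10 (log2 ± SE; adjusted p = 0.581). Under 8 other settings of the processing it lay between -0.24 and -0.09 and passed in 0 of them. Day 3 exceeded withdrawal by 0.26 ± 0.10, with groups that do not overlap (12.1% of all genes), and did not pass (adjusted p = 0.249). In order of level day 3 came first, then day 7, control and withdrawal, and none of the 6 comparisons of Mc2r passed.

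Mrap encodes the single-pass membrane protein that carries the receptor to the surface. In control its arrays read 9.18, 8.92, 9.21 and 9.22. At withdrawal they read 7.43, 7.24 and 7.36. The day 3 arrays stood at 8.52, 9.01, 8.69 and 8.55, and the day 7 arrays at 8.52, 8.15, 8.23 and 8.37. The withdrawal arrays are thus well below every other array, day 7 arrays are all below control, and 1 of the 4 day 3 arrays reaches into the control range. The withdrawal difference was -1.79 ± 0.13 (adjusted p = 7.6e-06).

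Mrap rose after withdrawal, with means below control on both recovery days. Against withdrawal it was higher by 1.35 ± 0.13 at day 3 (adjusted p = 0.000123) and by 0.97 ± 0.13 at day 7 (adjusted p = 0.00171). Against control its difference at day 3 was -0.44 ± 0.12 (adjusted p = 0.181), which did not pass, and at day 7 it differed by -0.81 ± 0.12 (adjusted p = 0.0362). The day 7 call was the 1 lower call among all 21439 genes in that comparison (0.00466%). It did not pass with only the 2 groups compared in the fit (adjusted p = 0.262) or with replicate number as a block (0.241). Left out in turn, control replicates 1, 3 and 4 and day 7 replicates 2, 3 and 4 each ended the call, with adjusted p from 0.112 to 0.216, while the difference stayed between -0.88 and -0.76 over the 8 fits. The mean at day 7 was below that at day 3 by a difference of -0.37 ± 0.12 with groups that do not overlap, as held for 3.56% of all genes, and this did not pass (adjusted p = 0.493).

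Mrap and Mc2r were then compared within each array, as the change in 1 relative to the change in the other. For this every gene was expressed relative to Mc2r in the same array and the whole table was refitted. Relative to Mc2r, Mrap differed by -1.65 ± 0.16 between withdrawal and control (limma, adjusted p = 5.54e-05; 4.01% of genes were called). From withdrawal to day 3 it rose relative to Mc2r by 1.08 ± 0.16 (adjusted p = 0.00184; 8.87% called), and from withdrawal to day 7 by 0.82 ± 0.16 (0.0156; 1.82% called). The latter did not pass without withdrawal replicate 2 (0.0755) or without day 7 replicate 1 (0.0547). Against control the relative difference was -0.57 ± 0.15 at day 3 (adjusted p = 0.13; 0.121% called) and -0.83 ± 0.15 at day 7 (0.155; 0.00933% called), and neither passed. The day 3 difference passed without day 3 replicate 2 (-0.73, adjusted p = 0.0347), and the day 7 difference with trend and robust options (0.0325). Between day 7 and day 3 it was -0.26 (0.573; 0% called).

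**Figure D2:**
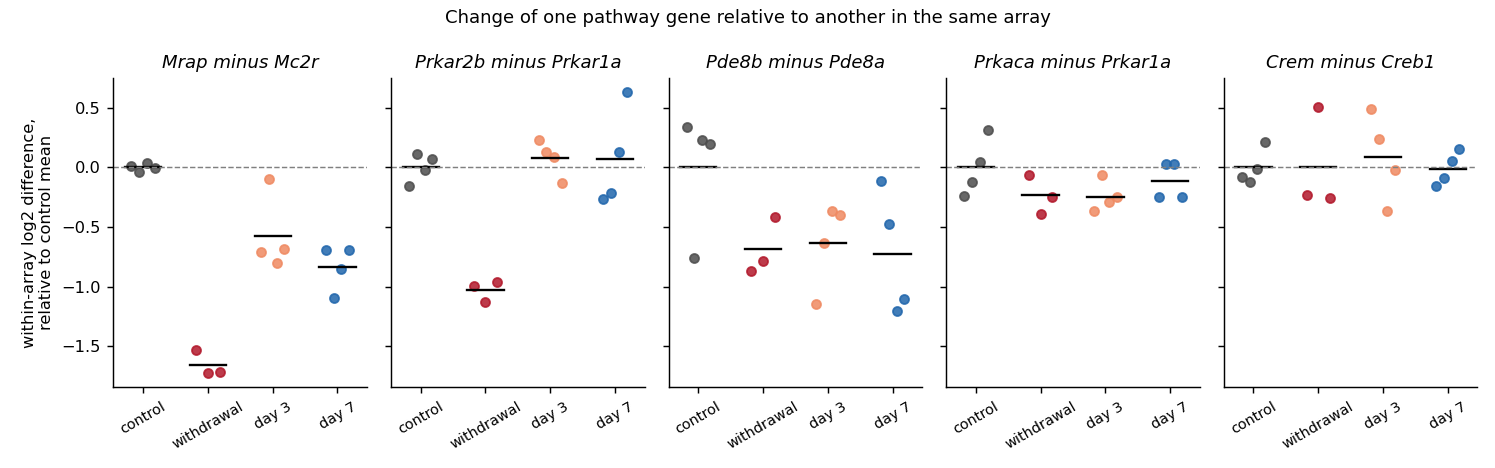
Within-array log2 difference between 2 pathway genes, set to 0 at the control mean (y axis), in the 4 groups (x axis); each point is 1 array and each line a group mean. Mrap relative to Mc2r and Prkar2b relative to Prkar1a are lowest at withdrawal, and the latter is back around 0 at day 3 and day 7.

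Pde8a and Pde8b encode a pair of high-affinity, cAMP-specific phosphodiesterases that keep cAMP low in steroidogenic cells. Pde8b read 5.96, 5.37, 6.08 and 6.22 in control and 4.78, 4.74 and 4.96 at withdrawal. It read 4.76, 5.21, 5.61 and 5.42 at day 3 and 5.87, 5.37, 4.71 and 5.08 at day 7. Withdrawal arrays lie below all control arrays, but both recovery groups run from about the withdrawal values up into the control range. The withdrawal difference was -1.08 ± 0.26 (limma, adjusted p = 0.0274), a call that passed without control replicate 2. Without control replicates 1, 3 and 4 and withdrawal replicates 1, 2 and 3 the adjusted p ran from 0.053 to 0.103. With replicate number as a block it was 0.0827. The spread of Pde8b was wide, with an SD of 0.37 in control and at day 3 and 0.49 at day 7, against 0.12 at withdrawal. Its means at day 3 and day 7 differed from control by -0.66 ± 0.24 (adjusted p = 0.342) and -0.65 ± 0.24 (0.77), and neither passed. Above withdrawal they stood by 0.42 ± 0.26 (0.513) and 0.43 ± 0.26 (0.515), and again neither passed.

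Pde8a passed in none of the 6 comparisons. Its arrays read 5.95, 6.46, 6.16 and 6.34 in control and 5.96, 5.84 and 5.69 at withdrawal. The day 3 arrays read 6.22, 6.16, 6.29 and 6.14, and the day 7 arrays 6.30, 6.17, 6.24 and 6.51. Withdrawal was lowest, overlapping control through 1 array of each group and lying below every day 3 and day 7 array. Of all genes 12.1% and 12.3% do not overlap in the latter comparisons. The difference from control was -0.40 ± 0.12 (adjusted p = 0.0876) and that of day 7 from withdrawal 0.47 ± 0.12 (0.0663), and neither passed. Both passed with array median centring (0.0265 and 0.0323) and with a filter on dim genes (0.0457 and 0.033). The first also passed without control replicate 1 (0.0354) and the second with trend and robust options (0.0486). Relative to Pde8a in the same array, Pde8b differed by -0.69 ± 0.28 between withdrawal and control (adjusted p = 0.064), with 30.2% of genes called in that fit. It passed with a further quantile normalization (0.0474) and without control replicate 2 (0.0285). In none of the other 5 comparisons did it pass, with 22.7% and 55% of genes called for day 3 and day 7 against withdrawal, 0.0886% and 0.014% against control and 0.00466% between the recovery days.

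Of the kinase, 2 regulatory subunit genes and 1 catalytic subunit gene were read. Prkar2b encodes the type II beta regulatory subunit, which holds the catalytic subunit inactive until cAMP binds. It read 8.08, 8.11, 8.12 and 8.03 in control, and 6.85, 6.80 and 7.00 at withdrawal. At day 3 it read 8.14, 8.28, 8.16 and 7.95, and at day 7 it read 7.87, 7.81, 8.06 and 8.70. Every withdrawal array is below every other array, the controls lie close together, and day 7 replicate 4 is above all other arrays. The withdrawal difference was -1.20 ± 0.17 (adjusted p = 0.000678). Prkar2b rose again by 1.25 ± 0.17 at day 3 (0.00142) and stood 1.23 ± 0.17 above withdrawal at day 7 (0.00171). Each of these calls held in all 7 fits without 1 array. Against control the differences of 0.05 at day 3 and 0.03 at day 7 have 95% intervals from -0.28 to 0.38 and from -0.30 to 0.35. Without day 7 replicate 4 the day 7 difference was -0.17, and with array median centring both differences were slightly negative (-0.02 at day 3 and -0.01 at day 7).

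Prkar1a encodes the type I alpha regulatory subunit, whose loss in humans causes nodular adrenal disease with cortisol excess. Its arrays lay between 6.02 and 6.31 in control and between 5.91 and 6.03 at withdrawal. The day 3 arrays ran from 5.98 to 6.22 and the day 7 arrays from 6.00 to 6.21. All groups overlap, and the widest difference, at withdrawal, was -0.17 ± 0.10 (adjusted p = 0.387; 95% interval from -0.38 to 0.03). Relative to Prkar1a in the same array, Prkar2b fell by 1.03 ± 0.18 from control to withdrawal (adjusted p = 0.00286; 7.01% of genes called). It then rose by 1.11 ± 0.18 to day 3 (0.00468; 2.47% called) and stood 1.10 ± 0.18 above withdrawal at day 7 (0.00494; 2.21% called). Each of these 3 differences between the subunits passed in all 7 fits without 1 array. Against control 0 of 2 relative differences passed, 0.08 at day 3 (0.981; 0.117% called) and 0.07 at day 7 (1.0; 0.00933% called).

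Prkaca encodes the alpha catalytic subunit, the enzyme that phosphorylates the targets. It read 7.93, 7.81, 8.12 and 8.20 in control and 7.71, 7.47 and 7.64 at withdrawal. At day 3 it read 7.48, 8.02, 7.71 and 7.76, and at day 7 7.82, 7.98, 7.89 and 7.75. Withdrawal lies below control and below day 7 with no overlap, where 15.1% and 12.3% of all genes do not overlap. The difference from control was -0.41 ± 0.13 and did not pass (adjusted p = 0.0944). It passed with array median centring (-0.52, adjusted p = 0.0239), which lowers the median of all genes by 0.11 at withdrawal against control. Relative to Prkar1a its change from control was -0.23 ± 0.15 (adjusted p = 0.36), with a 95% interval from -0.54 to 0.08.

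**Figure D3:**
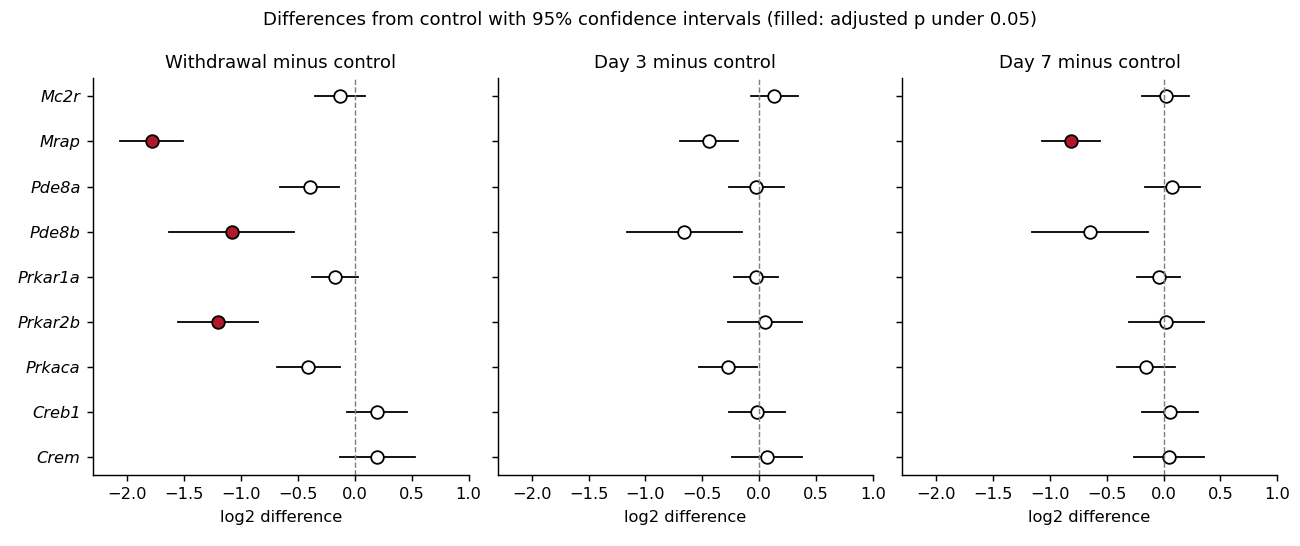
Log2 difference from control (x axis) of the 9 genes (y axis) at withdrawal, day 3 and day 7, with 95% confidence intervals from the limma fit. Filled points passed an adjusted p of 0.05: Mrap, Pde8b and Prkar2b at withdrawal, 0 genes at day 3, and Mrap at day 7.

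Creb1 and Crem encode nuclear factors that bind cAMP response elements. Creb1, the activator phosphorylated by protein kinase A, read 7.01, 7.05, 6.94 and 6.51 in control and 7.04, 6.95 and 7.22 at withdrawal. At day 3 it read 6.69, 6.86, 6.94 and 6.95 and at day 7 7.00, 6.94, 6.91 and 6.88. All groups overlap, and control replicate 4 is the lowest array. Its largest difference, day 3 against withdrawal, was -0.21 ± 0.12 (adjusted p = 0.498). Crem gives rise to activators and, from an internal start, to the inducible repressor ICER. The annotation assigns its probe set to the gene and names no isoform. Its group means, from 2.97 in control to 3.17 at withdrawal, are the lowest of the 9 but above the floor, with single arrays from 2.66 to 3.54. No comparison of Crem passed, and the difference between withdrawal and control was 0.20 ± 0.16 (adjusted p = 0.58; 95% interval from -0.13 to 0.53). Relative to Creb1, Crem differed from control by 0.01 ± 0.21 at withdrawal (0.988), with an interval from -0.43 to 0.44; 2.36% of genes were called there. It passed in none of the other 5 comparisons, in which 1.76%, 0.793%, 0.0373%, 0.00933% and 0.00933% of genes were called.

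Over the 9 genes the median difference between withdrawal and control was -0.40, against -0.01 over all genes. Groups did not overlap for 4 of the 9, against 15.1% of all genes. At day 3 against withdrawal 2 of the 9 were called higher (Mrap and Prkar2b) and 0 lower, where 2.25% of all genes were called, 1.37% higher and 0.886% lower, and 4 did not overlap (12.1%). The same pair was called higher at day 7 against withdrawal, where 1.88% of all genes were called, 0.98% higher and 0.905% lower (210 and 194 genes, or 391 and 134 with array median centring). Here too 4 of the 9 did not overlap (12.3%). These comparisons share the withdrawal arrays. Against control 0 of 9 passed at day 3 in limma (0.131% of all genes), with 3 at an unadjusted p under 0.05 (10% of all genes), and 0 of 9 groups were apart (5.2%). At day 7 Mrap passed (0.0187% of all genes) and was the 1 of the 9 apart (3.15%). Between day 7 and day 3 limma called 0 of 9 and 0 of all genes, or 3 genes with a filter on dim genes, with 1 of 9 at an unadjusted p under 0.05 (7.07% of all genes). Asked once over the 4 groups, the moderated F test passed for Mrap (adjusted p = 5.26e-05) and Prkar2b (0.00145), 2 of 9 against 2.63% of all genes. Pde8b had 0.112 and Mc2r 0.491 in that test.

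Transcription of cAMP-responsive genes often depends on the cAMP response element, to which CREB binds. The RefSeq promoter table (GRCm38.p6, 250 bases before to 50 after each start) holds 17 windows for 6 of the 9 genes: Pde8a, Pde8b, Prkar1a, Prkar2b, Prkaca and Creb1. Mrap, Mc2r and Crem are not in it. The full element TGACGTCA, which reads the same on both strands, and its parts TGACG and CGTCA, each the reverse complement of the other and both contained in the full element, were searched on both strands. The full element occurs in windows of 1 of the 6 genes, Prkar1a, and of 2.03% of all 27025 genes with a window. A part occurs in windows of 4 of the 6 genes and of 23% of all genes. Counted by window, the full element is in 2 of 17, against 1.79% of all 32851, and a part in 6 of 17, against 20.8%. The 2 windows with the full element are overlapping windows of Prkar1a that hold the same site, so that 1 site is counted in both. Both are also among the 6 windows with a part. A 30-base stretch around 1 match of each of these 4 genes is shown 5′ to 3′ on the gene's strand, with the match in capitals, to set the letters beside the responses above.
Prkar1a, chr11:109650889-109650918 (+): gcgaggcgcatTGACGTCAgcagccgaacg
Pde8a, chr7:81213169-81213198 (+): gctgctttgcatTGACGccagcagccgctg
Pde8b, chr13:95223001-95223030 (-): cgggagggaaagttggggTGACGcgcgctg
Prkaca, chr8:83972846-83972875 (+): gtctgcaactcgCGTCActcatccaggagc
In the windows used, the matches of Prkar1a, Pde8a and Prkaca start 49, 84 and 120 bases before the start site. That of Pde8b starts 38 bases after it. In the other, overlapping window of Prkar1a the same site starts 38 bases after that window's start site. Of these genes Pde8b passed at withdrawal, and Prkar1a passed in 0 of the 6 comparisons. The Pde8b windows near the 5′ end of the gene hold no match, and windows without a match also occur for Prkar1a and Prkaca. None of the searched letters is in the windows of Prkar2b. A match describes letters in a window and says nothing on binding.

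The rest of the route from receptor to nucleus was read from 8 lists with 58 genes, of which 51 were analysed here. Gnas, Adcy3, Pde4b, Pde4d, Pkig, Atf1 and Rapgef4 were not analysed here. The lists held the other melanocortin receptors and Mrap2, G protein subunits, adenylyl cyclases, other cAMP phosphodiesterases, other kinase A subunits and inhibitors, A-kinase anchoring proteins, CREB relatives and coactivators, and the Epac exchange factor Rapgef3. Limma called 0 of the 51 in each of the 6 comparisons. Of all genes it called 4.3% at withdrawal against control, and 2.25% and 1.88% at day 3 and day 7 against withdrawal. Against control it called 0.131% at day 3 and 0.0187% at day 7, and between the recovery days 0%. With shares this small, 0 calls in 51 genes do not set the lists apart from all genes. At withdrawal against control 8 of 51 had an unadjusted p under 0.05, where 17% of all genes did. At day 3 against withdrawal there were 8 (13.9% of all genes), at day 7 against withdrawal 5 (13.5%), and at day 3 against control 2 (10%). At day 7 there were 3 against control (5.95%) and 3 against day 3 (7.07%). The median of the 51 at withdrawal was 0.11. All 5 of Mc1r, Mc3r, Mc4r, Mc5r and Mrap2 were at the floor in every group, as were 14 of the 51 in all, so that a fall of these could not be seen.

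Of these genes 3, named after their values were seen, did not pass but did so under another setting or without 1 array. The anchoring protein gene Akap6 differed by -0.92 ± 0.23 between day 3 and withdrawal (adjusted p = 0.0523) from a level of 3.67. It passed with a filter on dim genes (0.0298), with trend and robust options (0.0467) and without withdrawal replicate 3 (-1.22, adjusted p = 0.0112). Without that array it also passed at withdrawal against control (0.96, adjusted p = 0.0238) and at day 7 against withdrawal (-1.11, 0.0193). The inhibitory G protein gene Gnai1 stood 0.79 ± 0.29 above control at withdrawal (0.169), or 1.04 (adjusted p = 0.039) without control replicate 2. The cyclase gene Adcy9 was 0.38 ± 0.11 higher at day 7 than at withdrawal (0.0998), and passed with array median centring (0.0406).

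Genes known to respond to ACTH or cAMP in cortical cells were read beside the pathway. Of 10, limma called 6 lower at withdrawal than in control, 5 higher at day 3 than at withdrawal and 6 higher at day 7 than at withdrawal. Of all genes 1.81% were called lower in the first comparison, and 1.37% and 0.98% higher in the other two. The median differences were -0.41, 0.29 and 0.65. Scarb1, the lipoprotein receptor that supplies cholesterol, was 3.34-fold lower at withdrawal (adjusted p = 6.12e-05), the 21-hydroxylase Cyp21a1 2.40-fold (7.6e-06) and Cyp11b1 1.65-fold (0.00127). At day 3 these stood 3.13-fold, 2.21-fold and 1.70-fold above withdrawal, and at day 7 3.07-fold, 2.26-fold and 1.59-fold. Star, which carries cholesterol into mitochondria, Cyp11a1, the side-chain cleavage enzyme, and Fdx1, its electron donor, also passed at withdrawal, by -0.36, -0.46 and -0.71. Star did not pass there with replicate number as a block (0.0718), with 2 groups in the fit (0.0988) or without withdrawal replicate 1 (0.0707) or 3 (0.0557), and Cyp11a1 read from its probe set of largest variance differed by -0.21 (adjusted p = 0.532). With 2 groups in the fit, 2 of the 6 calls at day 7 were kept, Scarb1 and Cyp21a1. Without 1 array Cyp11a1 passed at day 3 in 1 of 7 fits and at day 7 in 4 of 7, and Star at day 7 in 0 of 7. The other 4 genes of the list did not pass. The orphan receptor gene Nr4a1, the kinase gene Sik1 and the clock gene Per1 had higher means at withdrawal than control by 0.93, 0.82 and 0.84, and Nr4a2 by 1.67, with adjusted p of 0.433, 0.391, 0.189 and 0.0698. Of these 10 genes 0 passed against control at day 3 or day 7.

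**Figure D4:**
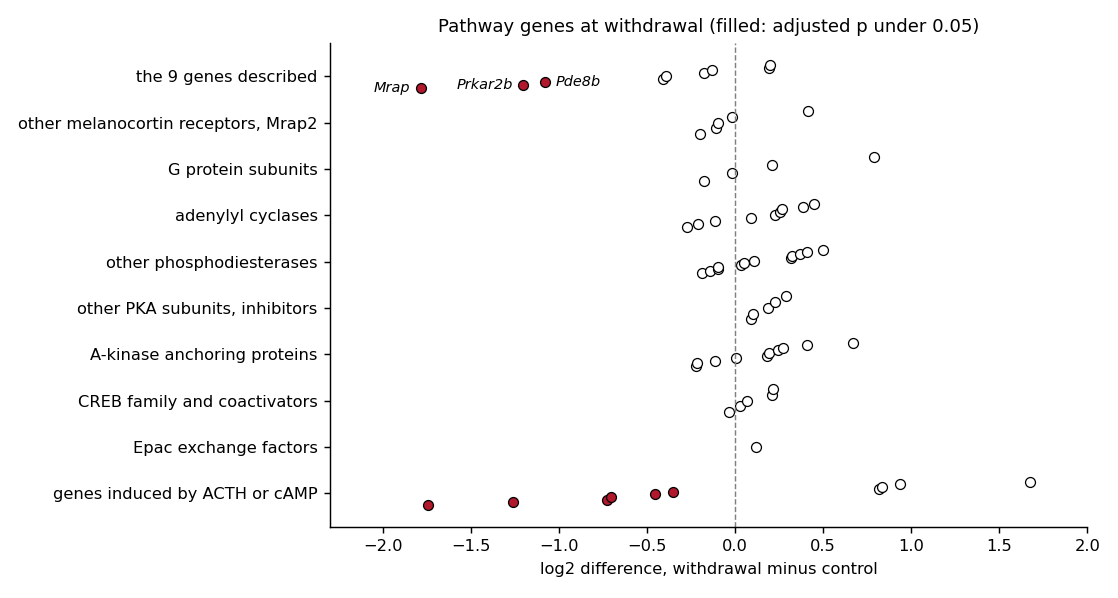
Log2 difference between withdrawal and control (x axis) of each analysed gene, by list (y axis); each point is 1 gene and filled points passed an adjusted p of 0.05. Filled points are 3 of the 9 genes described and 6 of the 10 genes induced by ACTH or cAMP, and 0 of the 51 in the 8 lists between them. Of all genes 4.3% passed.

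Cell type markers moved in the same comparisons. The array mean of 4 zona fasciculata markers (Cyp11b1, Cyp21a1, Abcb1b and Scarb1) ran from 9.85 to 9.89 in control and from 8.45 to 8.72 at withdrawal. It was 9.71 to 9.81 on day 3 and 9.74 to 9.86 on day 7. All 4 were called lower at withdrawal, and Cyp11b1, Cyp21a1 and Scarb1 are also among the 10 ACTH-responsive genes. Mc2r, listed as a further marker of this zone, was left out of the mean because it is among the 9 genes described. It was not called lower at withdrawal (-0.13, limma, adjusted p = 0.581). Of 6 macrophage markers 5 were called higher at withdrawal (2.49% of all genes were), while Cd14 read 4.86 in control and 4.48 at withdrawal (adjusted p = 0.205). Their array means ran from 4.83 to 5.01 in control and from 6.01 to 6.50 at withdrawal. At day 3 they ran from 5.32 to 5.87 and at day 7 from 5.05 to 5.75, above every control array. For zona glomerulosa, 4 of 6 were called higher, with means from 7.59 to 7.65 in control and from 8.21 to 8.57 at withdrawal. They ran from 7.29 to 7.82 on day 3 and from 7.85 to 8.06 on day 7, the latter above every control array. Of 4 markers of all cortical zones 2 were called lower at withdrawal, Star and Cyp11a1, which are also among the 10 ACTH-responsive genes. The median difference of this list was -0.33, against -1.43 for the fasciculata markers. Array means of the all-zone markers ran from 9.29 to 9.45 in control and from 8.94 to 9.13 at withdrawal. On day 3 they ran from 9.21 to 9.40 and on day 7 from 9.35 to 9.39. Medulla had 1 of 6 higher (8.97 to 9.42, then 9.50 to 9.61) and endothelium 1 of 5 lower (6.78 to 7.00, then 6.39 to 6.50). Their part in the results was not tested. Adipocytes also make Mrap, and of their 7 markers 0 passed in any comparison in limma, where 4.3% of all genes were called at withdrawal against control. Their means ran from 4.99 to 5.83 in control and from 5.01 to 5.72 at withdrawal. In recovery they ran from 4.79 to 6.16 on day 3 and from 4.89 to 5.32 on day 7, and Lep was at the floor throughout, as was Ucp1 at withdrawal. The median difference of the 7 markers between withdrawal and control was 0.03. Ucp1 varied widely, with means of 3.65 (SD 1.69) in control, 2.48 (SD 1.55) on day 3 and 2.07 (SD 0.33) on day 7. With withdrawal lowest, its group means had the same order as those of Mrap. A part of adipocytes in the differences of Mrap was not tested.

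Set against the fasciculata marker mean of the same array, a comparison chosen after the values were seen, Prkar2b differed between withdrawal and control by 0.13 ± 0.16 (95% interval from -0.20 to 0.46). Mrap differed by -0.46 ± 0.15 (from -0.77 to -0.14), below the average of markers that themselves fell by 0.73 (Cyp11b1), 1.26 (Cyp21a1), 1.59 (Abcb1b) and 1.74 (Scarb1). Mc2r differed by 1.20 ± 0.12 (from 0.95 to 1.44) and Pde8b by 0.25 ± 0.26 (from -0.31 to 0.81). In that fit 98.9% of all genes were called. At day 7 against control the difference of Mrap relative to the marker mean was -0.73 ± 0.14, with an interval from -1.02 to -0.44 (adjusted p = 0.21). Relative to Prkar2b it was -0.84 ± 0.21, with an interval from -1.26 to -0.42 (adjusted p = 0.602). Both intervals, which are not adjusted for the number of genes, lie below 0, and neither difference passed over all genes.

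The genes most like Mrap and Prkar2b were found as those with the smallest root mean square difference over the 15 arrays, after each gene was centred on its own mean, among 17080 genes. For Mrap these were Aifm2, a ferroptosis-suppressing oxidoreductase (0.194 log2 units), Pcx, pyruvate carboxylase (0.226), and Xdh, xanthine dehydrogenase (0.274), where the median gene was at 0.67. Aifm2 had group means of 7.53 in control and 6.07 at withdrawal, then 7.13 on day 3 and 6.98 on day 7. For Prkar2b they were Fads1 (0.133) and Fads2 (0.142), both fatty acid desaturases, and Sema5b (0.158), a semaphorin, against a median of 0.565. Fads1 had means of 9.70, 8.48, 9.58 and 9.58 in the same order of groups.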

How the data were processed

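RNA of 15 samples of adrenal glands was hybridised to 1-colour arrays after biotin labelling with an Affymetrix kit, as the labels' protocols say. The authors deposited log2 values; the submitters' processing notes name RMA and oligo. Their versions, the genome build and any probe filter were not given in the sources used here. Of 32736 probe sets, 22399 carry 1 gene symbol; for the 807 genes with several, that with the highest mean was kept, leaving 21439. Differences were tested with limma 3.58.1 (R 4.3.3), lmFit and eBayes on 4 groups and 15 arrays, with Benjamini-Hochberg adjustment over all genes within a comparison. Relative changes were tested by refitting all genes after subtraction of 1 reference gene per array, in 5 pairs, and, chosen after the values were seen, relative to Prkar2b and to the mean of 4 fasciculata markers. The scripts were tested on simulated data. The number of arrays limits the precision.

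The 9 genes and the lists were chosen with earlier results of these data known. Named beside them are up to 3 genes a list and comparison that passed, marker genes, the 3 genes most like each of the 9 that passed the F test, and genes singled out as such in the text. The alternatives were the probe set of largest variance, all probe sets, a filter (highest group mean at least 3), array median centring, further quantile normalization, replicate number as a block, trend and robust options, 2 groups per fit, and leaving out each array. Same-numbered arrays did not deviate together (21 pairs, correlations from -0.138 to 0.0604), so the numbers were not used as pairs.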

Additional observations from a re-analysis of the deposited data

Results flagged for a closer look

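Among 36 sets of 4 arrays examined for a sample standing apart by Dixon's criterion, 2 exceeded its 95% critical value. Chance flags about 1 in 20 such sets. Control replicate 2 was below the other controls for Mrap, at 8.92 against 9.18 to 9.22 (gap over range 0.877). Without it the difference of Mrap between withdrawal and control was -1.86. Control replicate 4 was below the others for Crem, at 2.81 (gap over range 1), where the other 3 controls hold 1 identical value, 3.02, to 6 decimals. A value shared by arrays to this precision occurs in 11024 of the 21439 genes (51.4%).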

How the results depend on the processing

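Counts below are of all genes called by limma, in the order withdrawal against control, day 3 against withdrawal, day 7 against withdrawal, day 3 against control, day 7 against control and day 7 against day 3, where 921, 483, 404, 28, 4 and 0 genes passed. With only the 2 groups compared in a fit they were 524, 161, 154, 9 and 0 for the first 5, and with replicate number as a block 544, 257, 221, 4 and 0. Of the 9 genes, 1 passed at day 7 against control, and 0 did under either of these. The filter on dim genes gave 655 for day 7 against withdrawal, 85 for day 3 against control and 3 for day 7 against day 3. Trend and robust options gave 91 for day 3 against control and 2 for day 7 against control. Array median centring gave 53 for day 3 against control and called 5 of the 9 genes at withdrawal against 3, adding Pde8a and Prkaca. Leaving out 1 array in turn gave 459 to 774, 209 to 389, 200 to 415, 6 to 27, 0 to 9 and 0 to 7 genes, and 2 to 3, 2, 2, 0, 0 to 1 and 0 of the 9. For these counts the cause was not tested, beyond the smaller number of arrays where some were left out.

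Over the 9 genes, 6 comparisons and 8 other settings, 423 of 432 differences kept their side of the threshold, 3 lost it, 6 gained it and 0 called ones changed sign. Without 1 array, 392 of 405 kept it. Each of the 9 genes has 1 probe set, so the settings that change the choice of probe sets left their values unchanged. Most of these differences did not pass in the main fit, so keeping a side mostly means that they again did not pass. Of the relative differences, 238 of 240 kept their side under other settings and 221 of 225 without 1 array. The withdrawal calls of Mrap and Prkar2b passed in all of these, with adjusted p up to 8.19e-05 and 0.00647 without 1 array. Of the named ACTH-responsive genes, 121 of 136 differences kept their call under other settings and 101 of 119 without 1 array. The block changed no call of the 9 genes other than those of Mrap at day 7 against control and Pde8b at withdrawal. A fall of genes near the floor is beyond these arrays.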
